A study of Mus musculus with 4 samples.

Results

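The contacts of the *Lef1* promoter and of Leaf, an intergenic element centromeric to *Lef1*, were compared within adult kidney by 4C-Seq. The restriction fragments compared were those of chromosome 3 that carried a score from both viewpoints in kidney and whose middle lay between positions 130019540 and 132108763 of GRCm38/mm10. They numbered 2082 of the 2098 fragments listed in this span, and of 2350945 fragments in the whole data set. The other 16 had been left empty by the authors because they adjoined a viewpoint, 10 of them at Leaf and 6 at the promoter.

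The kidney came from adult mice of strain OF1, and the whole organ had been digested to freshly isolated single cells of mixed type. The labels name no mutation, transgene or drug treatment. Kidney served as the control tissue of the study, whose other tissue was the embryonic whisker pad of the same strain at E12.5. There was 1 library per viewpoint, so that no difference between the kidney profiles has a replicate check, and viewpoint and library cannot be told apart.

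LEF1 is a DNA-binding factor that acts with beta-catenin at the end of the canonical Wnt pathway, and it is needed for the formation of hair and whisker follicles. Genes of this kind are often controlled by enhancers that lie far away on the chromosome and come close to the promoter as the chromatin folds. 4C-Seq reads such proximity from a chosen site, the viewpoint. Crosslinked chromatin is cut and ligated, and the fragments joined to the viewpoint are amplified and sequenced, so that the score of a fragment falls with distance and a contact should be visible from either of its ends.

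The middles of the excluded regions, taken as the positions of the viewpoints, lay 89.2 kb apart. Leaf occupies chr3:131019746-131020624, which is 879 bp of intergenic sequence, and *Lef1* starts 89847 bp telomeric to it and runs from 131110471 to 131224356 on the plus strand. The primary cutter NlaIII recognises CATG and the secondary cutter DpnII recognises GATC. In the reference, each of the 2082 fragments was bounded by NlaIII sites and contained DpnII. The 100 bases at the NlaIII cut of each viewpoint are shown because every score is a ligation to that end. They are the GRCm38 plus strand at chr3:131107979-131108078 and chr3:131019670-131019769, both intergenic, and the CATG is in capitals.
*Lef1* promoter viewpoint: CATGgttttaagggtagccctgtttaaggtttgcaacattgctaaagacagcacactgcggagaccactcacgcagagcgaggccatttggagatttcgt
Leaf viewpoint: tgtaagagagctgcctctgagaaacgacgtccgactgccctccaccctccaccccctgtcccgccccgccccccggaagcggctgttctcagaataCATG

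The GC content of these ends was 49.0% at the promoter and 64.0% at Leaf.

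A ligated fragment is read from one of its NlaIII ends up to the nearest DpnII site, and such ends are shown for 5 of the fragments that turned up from both viewpoints. The first 3 are among the co-detected fragments closest to a viewpoint, and the others are among the 5 fragments with the highest lesser score. All are plus strand sequence of GRCm38 with CATG and GATC in capitals. The left end of the fragment at chr3:131014316-131014804, just centromeric to the region excluded at Leaf, occupies chr3:131014312-131014470 and is intergenic. The right end at chr3:131113653-131113690 is intronic in *Lef1*, and that at chr3:131101609-131101773 is intergenic and centromeric to the promoter. The right end at chr3:131086072-131086265 is intergenic between the viewpoints. The right end at chr3:131122907-131123056 is intronic in *Lef1*.
Centromeric to Leaf: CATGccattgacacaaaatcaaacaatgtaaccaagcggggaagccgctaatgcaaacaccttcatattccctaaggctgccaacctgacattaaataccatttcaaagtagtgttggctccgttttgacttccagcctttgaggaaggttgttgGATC
*Lef1* intron, nearest the promoter: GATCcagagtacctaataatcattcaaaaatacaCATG
Centromeric to the promoter: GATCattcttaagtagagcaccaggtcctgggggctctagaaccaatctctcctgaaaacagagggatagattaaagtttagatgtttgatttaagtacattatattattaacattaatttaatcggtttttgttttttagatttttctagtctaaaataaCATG
Between the viewpoints: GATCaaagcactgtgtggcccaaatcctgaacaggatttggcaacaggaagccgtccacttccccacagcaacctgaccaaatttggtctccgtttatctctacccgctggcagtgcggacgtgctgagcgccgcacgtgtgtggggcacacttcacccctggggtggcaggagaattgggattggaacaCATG
*Lef1* intron, farther telomeric: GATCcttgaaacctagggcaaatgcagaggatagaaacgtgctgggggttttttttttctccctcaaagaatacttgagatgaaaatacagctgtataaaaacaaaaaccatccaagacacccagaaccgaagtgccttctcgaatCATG

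The deposited value is a score per fragment, a signal of 0 or more that is not a read count, and how deeply the libraries were sequenced is not known. Over the genome, raw scores summed to 821297 for the promoter and to 787783 for Leaf. The members held 5.18% of the genome's score from the promoter and 4.17% from Leaf, against 23.7% and 15.3% in whisker pad. To compare the viewpoints, each score was divided by the mean raw score of its library over the 2082 members, which was 20.4 for the promoter and 15.8 for Leaf. A scaled score of 1 is thus the average of the locus.

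About 2 times as many fragments were seen from the promoter as from Leaf, and most fragments seen from Leaf were also seen from the promoter. A similar imbalance held over the whole genome, where 29542 fragments (1.26%) were above 0 from the promoter and 13002 (0.553%) from Leaf. From the promoter, 586 of the 2082 members had a score above 0, which is 28.1% with a 95% Wilson interval of 26.3% to 30.1%. From Leaf they numbered 274, which is 13.2% with an interval of 11.8% to 14.7%. Intervals of this kind cover the counting of fragments only, and neighbouring fragments are not independent. A score above 0 is called detection here.

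Detection from both viewpoints was met in 176 members, or 8.45% (7.33% to 9.73%). Another 410 were detected from the promoter only and 98 from Leaf only, and 1398 from neither. Of the fragments detected from Leaf, 64.2% were also detected from the promoter, against 22.7% of those not detected from Leaf. In the opposite direction, 30.0% of the fragments detected from the promoter were also detected from Leaf, against 6.55% of those that were not. When only as many of the highest promoter fragments were kept as Leaf detected, the overlap was 33.9% of either list.

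Co-detection varied with position, and so did detection from each viewpoint. Between the viewpoints 38 of 80 members were detected from both, centromeric to Leaf 87 of 1056, and telomeric to the promoter 51 of 946. The promoter detected 63, 272 and 251 of these members, and Leaf 46, 152 and 76. Of the fragments detected from Leaf, 82.6%, 57.2% and 67.1% were also detected from the promoter, against 73.5%, 20.5% and 23.0% of the others. Between the viewpoints the overlap was thus near the 78.8% of all members detected from the promoter. On the telomeric side, all 26 members detected from Leaf within 50 kb of the promoter were also detected from the promoter, as were all 12 at 50 to 100 kb and 13 of 14 at 100 to 200 kb. The promoter detected 61 of 62, 56 of 67 and 51 of 108 members in these bands, so that the overlap in the first 2 bands was close to its share over all members. Beyond 200 kb, the promoter detected 12, 16 and 55 fragments at 200 to 300, 300 to 500 and 500 to 1000 kb, and Leaf detected 2, 4 and 18, of 71, 138 and 500 members, and none was common to both. At these shares of all members, few or no common fragments is near the background. In whisker pad, 10, 23 and 24 fragments were common to both in these bands. Detection was also wider there, with 47, 81 and 137 members from the promoter and 14, 26 and 56 from Leaf. Of those detected from Leaf, 71.4%, 88.5% and 42.9% were also detected from the promoter, against 64.9%, 51.8% and 25.5% of the others.

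On the centromeric side the overlap reached farther, as did detection from each viewpoint. Both viewpoints detected 22 of 43 members within 50 kb of Leaf, 25 of 73 at 50 to 100 kb, 16 of 111 at 100 to 200 kb and 15 of 95 at 200 to 300 kb. Up to 200 kb, the promoter detected 27, 40 and 49 of these members and Leaf 32, 29 and 28. The overlap then fell to 7 of 218 members at 300 to 500 kb and 2 of 516 at 500 to 1000 kb. There the promoter detected 45 and 64 members and Leaf 17 and 26. Up to 500 kb, fragments detected from Leaf were detected from the promoter more often than the others in each band. At 500 to 1000 kb the shares were 7.69% and 12.7%. Centromeric to Leaf, the promoter still detected 47 of the 95 members at 200 to 300 kb, whereas Leaf, which lies closer to them, detected 20.

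**Figure D1:**
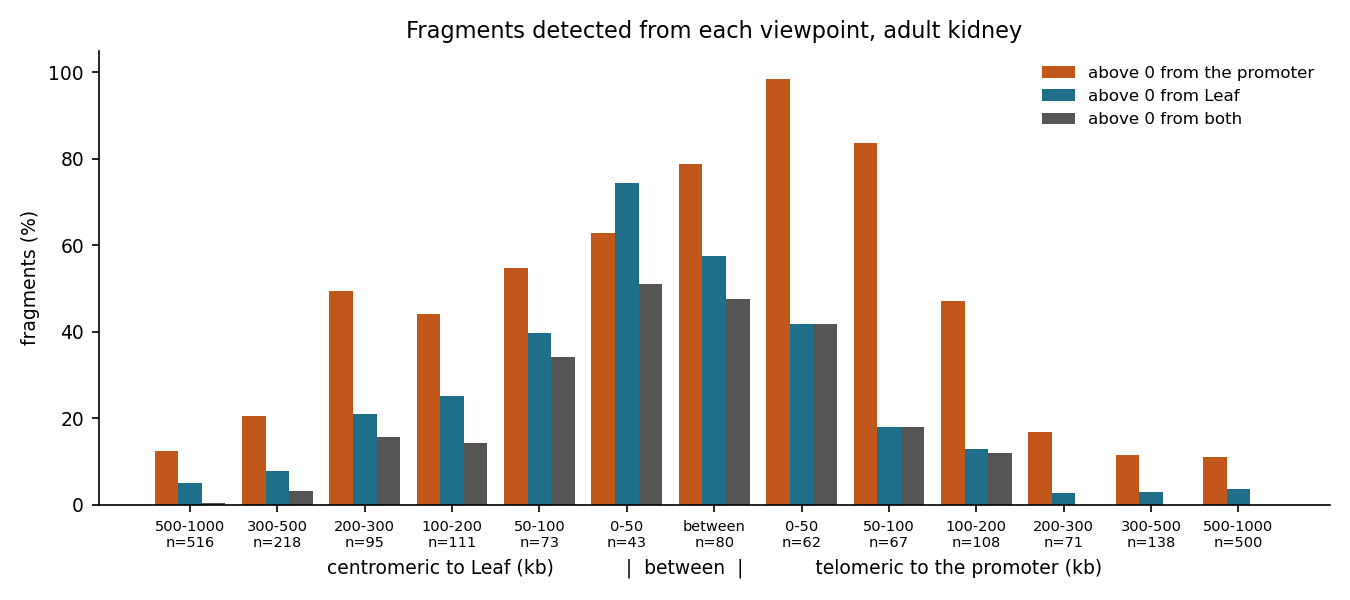
Share of member fragments (%) with a score above 0 from the promoter, from Leaf and from both in adult kidney, by distance band in kb from the nearer viewpoint, with the number of members (n) under each band. Co-detection is highest around Leaf and between the viewpoints, and is 0 in the 3 bands beyond 200 kb on the telomeric side.

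The scores of the detected fragments were distributed differently. The median scaled score of a detected fragment was 1.68 from the promoter and 4.27 from Leaf. Of the whole score of the members, 50% was held by 55 fragments from the promoter and by 36 from Leaf. The highest single scores were 157 and 81.1, and the 10 highest fragments held 25.2% and 23.9%. As each mean is set to 1, fewer detected fragments bring a higher mean among them, and the part of this in the differences reported here was not tested.

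Both profiles rose towards their own viewpoint. From the promoter, the mean scaled score was 7.25 within 50 kb on the centromeric side and 13.1 within 50 kb on the telomeric side, which is the 5′ part of *Lef1*. It was 2.03 and 2.04 at 50 to 100 kb, 1.29 and 1.16 at 100 to 200 kb, and then parted. At 200 to 300 kb it was 0.998 on the centromeric side, where 53 of 114 members were detected, and 0.237 on the telomeric side, where 12 of 71 were.

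Leaf gave the opposite tilt close by, with 12.2 within 50 kb on the centromeric side and 7.89 on the side that faces *Lef1*. At 50 to 100 kb the order turned, with 2.48 on the centromeric side and 3.37 on the side of *Lef1*, a band that holds the promoter. At 200 to 300 kb Leaf had 0.975 on the centromeric side and 0.205 on the telomeric side. From both viewpoints, therefore, the score at this distance was about 4 to 5 times higher towards the centromere than towards the telomere.

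**Figure D2:**
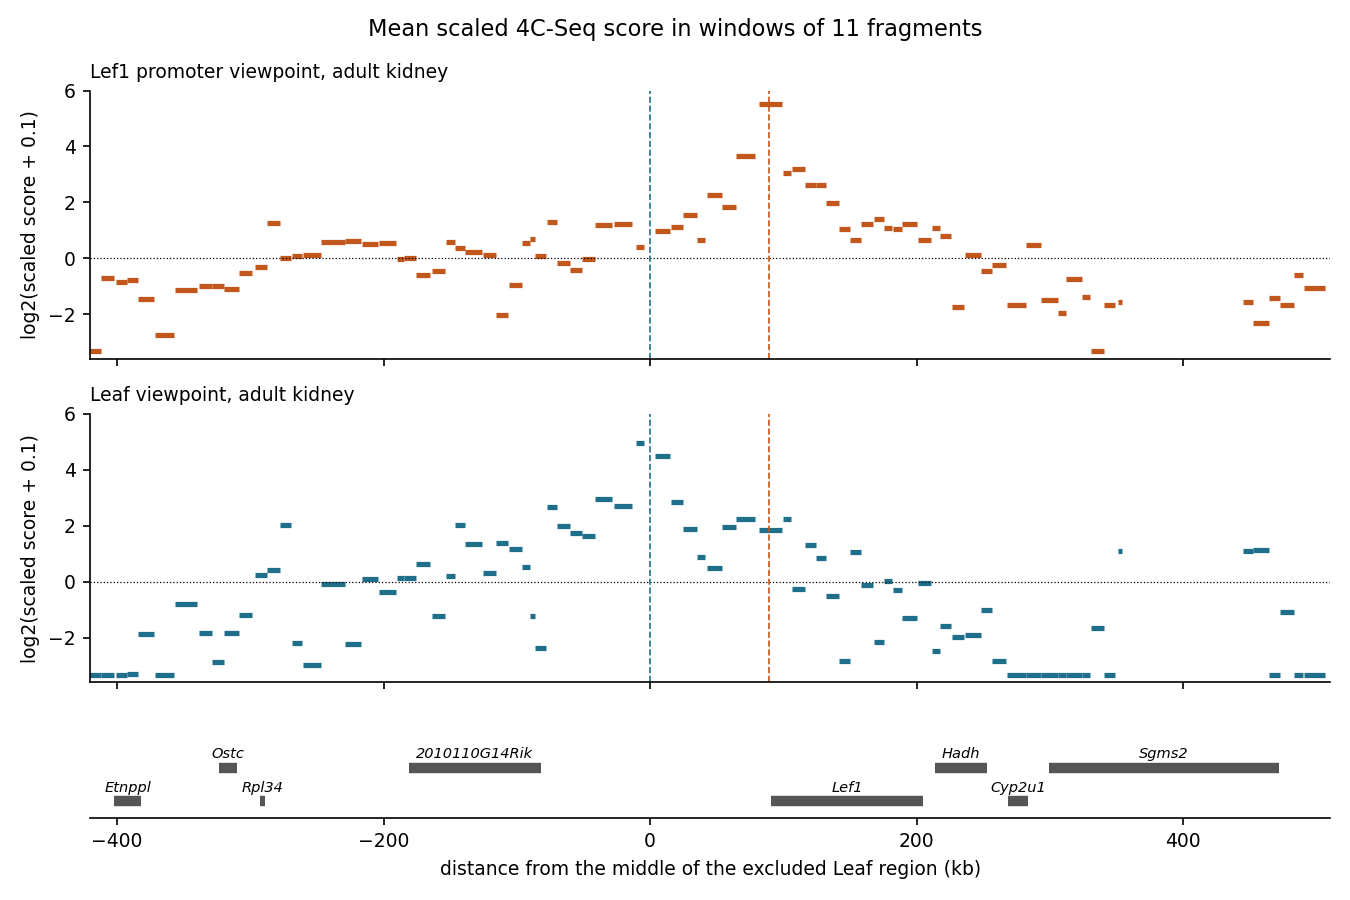
Mean scaled score in consecutive windows of 11 fragments, as log2(score + 0.1), against distance in kb from the middle of the region excluded at Leaf, for the promoter viewpoint (top) and the Leaf viewpoint (middle), with genes below. Dashed lines mark Leaf (0 kb) and the promoter (89.2 kb), the dotted line marks log2 of 0, and the break near 400 kb is a stretch without listed fragments. Windows between the viewpoints are raised from both ends, and *Lef1* is raised from the promoter along its whole length.

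To find shared and viewpoint-specific stretches, the members were cut into 189 consecutive windows of 11 fragments, which left 3 members over. A window was called shared where the mean scaled score was at least 1 from both viewpoints, and specific to a viewpoint where its mean was at least 1, the other was below 1, and the values differed at least 2-fold after adding 0.1. Of the windows 21 were shared (11.1%, 7.38% to 16.4%), 13 were promoter-specific (6.88%, 4.06% to 11.4%) and 20 were Leaf-specific (10.6%, 6.96% to 15.8%). Another 129 were low from both, and 6 were above 1 from a single viewpoint without reaching the ratio. With the scores scaled to the mean of chromosome 3, 32.3% of windows were promoter-specific and 8.47% Leaf-specific, and with the median of the detected members, 7.94% and 0.529%. These classes rest on 1 library each and carry no test.

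The shared windows lay around and between the viewpoints. All 7 windows between the viewpoints were shared, as were 9 centromeric to Leaf and 5 from the promoter on. Of the 21, 17 lay within 100 kb of a viewpoint and 0 lay more than 300 kb from both. The 5 shared windows with the highest lesser mean all lay from 29.9 kb telomeric to Leaf onwards, on the side of *Lef1*.

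The first of them spanned 131118928 to 131125490 in *Lef1*, with 8.26 from the promoter and 4.64 from Leaf. It was followed by an intergenic window from 131084075 to 131098268, with 12.6 and 4.62. The window at the promoter itself, from 131101610 to 131118335, had 46.1 and 3.52. The mean from Leaf was thus not higher in the window at the promoter than in those that flank it.

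Nearer the middle, 131073311 to 131083884 had 3.50 from the promoter and 3.79 from Leaf, and 131044196 to 131054669 had 2.79 and 3.58. These windows lie 59.1 kb and 29.9 kb from Leaf, and 30.2 kb and 59.3 kb from the promoter, and from both viewpoints their means differed by less than 1.5-fold. Detection was wider from the promoter, with 10 and 9 of 11 fragments against 5 and 8 from Leaf.

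Within *Lef1*, 3 further shared windows were spread over the 5′ and middle parts of the gene. The farthest of these, at 131169638 to 131177685, had 1.48 from the promoter and 1.98 from Leaf, although Leaf lies 154 kb away and the promoter 64.9 kb. On the other side, 9 windows centromeric to Leaf were shared, of which 4 overlapped the long non-coding RNA gene *2010110G14Rik*. The most distant shared window, at 130732277 to 130742090, lay 282 kb from Leaf and 372 kb from the promoter, and had 2.31 from the promoter and 1.25 from Leaf.

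Single fragments with a high score from both viewpoints were found on either side of the promoter and on either side of Leaf. The fragment with the highest lesser score, 131116217 to 131116660 in *Lef1*, overlapping an annotated exon, had 75.8 from the promoter and 25.2 from Leaf. The next, at 130999472 to 131000859, is intergenic, 19.4 kb centromeric to Leaf, and had 14.8 and 19.0. The third, at 131085303 to 131086261 between the viewpoints, whose right end is printed above, had 11.4 and 31.3. The remaining ones had 9.52 and 8.77 at 131033668 to 131033912, and 8.10 and 16.8 at 131122854 to 131123052, the *Lef1* intron fragment printed above. In 3 of the 5 the Leaf score was the higher.

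**Figure D3:**
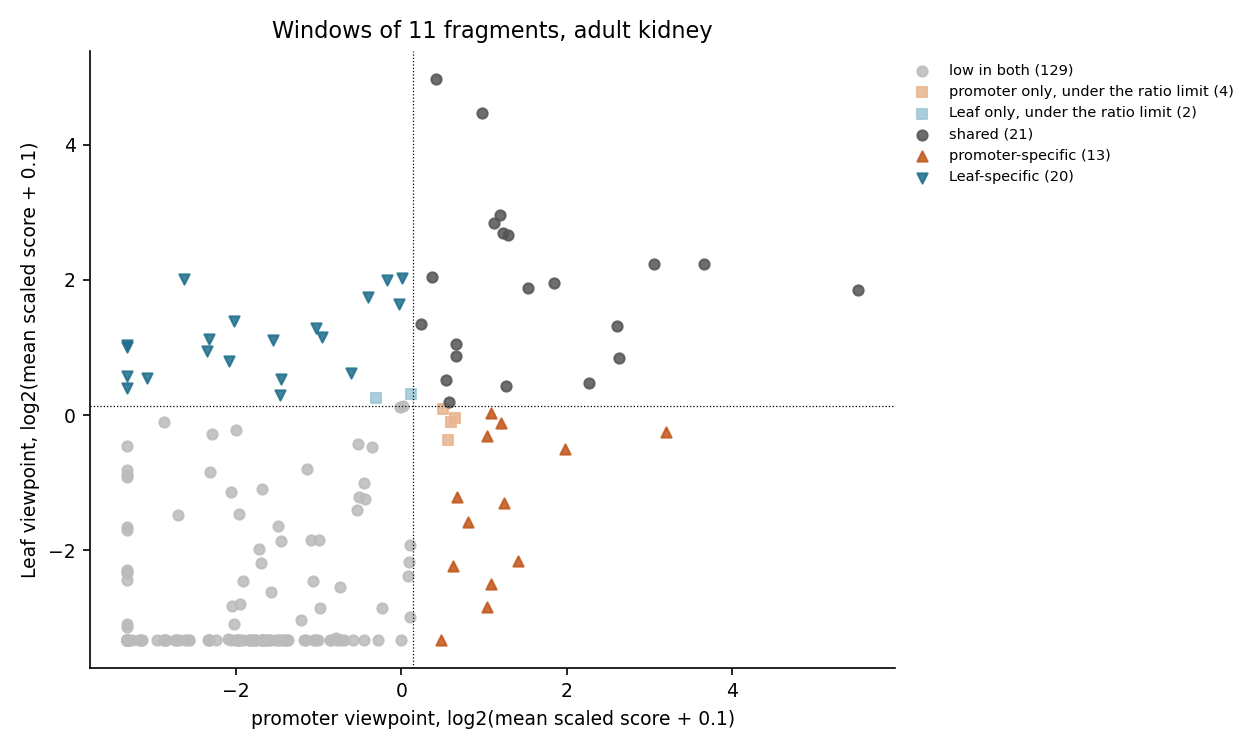
Mean scaled score of the 189 windows from the promoter (horizontal) and from Leaf (vertical) in adult kidney, both as log2(mean + 0.1), with dotted lines at a mean of 1. Grey circles at the upper right are the 21 shared windows, triangles the 13 promoter-specific and inverted triangles the 20 Leaf-specific ones.

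The promoter-specific windows followed the body of *Lef1* and continued beyond it. Of the 13, 11 lay telomeric to the promoter, 8 of them overlapping *Lef1* and 2 overlapping *Hadh*, which encodes a mitochondrial enzyme of fatty acid oxidation. The highest ratio was at 131161381 to 131169579 in *Lef1*, with 1.95 from the promoter and 0.0403 from Leaf. The window at 131125766 to 131135792, also in *Lef1*, had 9.12 and 0.738, and that at 131187738 to 131194882 had 2.57 and 0.124.

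Beyond *Lef1*, the window from 131230962 to 131236700 at *Hadh* had 2.02 from the promoter and 0.0777 from Leaf. The window from 131301961 to 131312588, which overlaps *Cyp2u1*, a cytochrome P450 gene, had 1.30 from the promoter and was listed at 0 from Leaf. In this window 4 of 11 fragments were detected, and 1 of them, at 10.3, carried most of the mean, which was 0.394 without it. In the 4 other windows named, the mean without the highest fragment stayed above 1.

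The Leaf-specific windows were of another kind. Of the 20, 13 lay more than 300 kb from both viewpoints and 8 rested on a single detected fragment. Only 3 lay within 100 kb of a viewpoint, side by side from 130949992 to 130978020 on the centromeric flank of Leaf. There Leaf had 3.89, 3.26 and 3.03 and the promoter 0.790, 0.654 and 0.883, with 4 to 5 fragments detected from either viewpoint.

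The 5 Leaf-specific windows with the most extreme ratios all lay over 500 kb from both viewpoints. The first, at 131750077 to 131758252, had 3.94 from Leaf, with 4 of 11 fragments detected, and 0.0615 from the promoter. The windows at 131794154 to 131797434 and 131670098 to 131683876 had 1.94 and 1.91 from Leaf, with 1 detected fragment each, and were listed at 0 from the promoter. The window at 130099162 to 130112570 had 1.40 from Leaf, again in 1 fragment. The last, at 130441165 to 130450223 in *Col25a1*, had 1.22 from 2 fragments. When the highest fragment of each window and library was left out, 10 windows were shared, 12 were promoter-specific and 8 were Leaf-specific, of which 10, 10 and 5 had been in the same class before.

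Far fragments showed the same contrast. Of the 1372 members more than 300 kb from both viewpoints, 180 were detected from the promoter (13.1%) and 65 from Leaf (4.74%), and 9 from both. The mean scaled score was nevertheless 0.176 from the promoter and 0.260 from Leaf. A score of at least 5 was reached by 25 far fragments from Leaf, which held 83.2% of the far score of that library, and by 5 from the promoter, which held 11.8%.

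Of these 25 fragments, 1 was detected from the promoter in kidney, where 13.1% of all far members were, and 5 from Leaf in whisker pad, where 239 of the 1372 far members (17.4%) were. The highest, at 131754631 to 131754741, is an intergenic fragment of 111 bp with a scaled score of 26.8 from Leaf, and it was at 0 from the promoter and in both whisker pad libraries. The next, at 130536715 to 130536777 in an intron of *Col25a1*, is 63 bp long and had 25.8 from Leaf and 0 in the other 3 libraries. The highest far fragment from the promoter, at 131769580 to 131769842 in an intron of the long non-coding RNA gene *Gm29865*, had 6.38, and was at 0 in the other 3. Of the 5 far promoter fragments at 5 or more, 4 were detected from the promoter in whisker pad. There 568 of the 1372 far members (41.4%) were, and 5 fragments are too few to compare with this share.

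**Figure D4:**
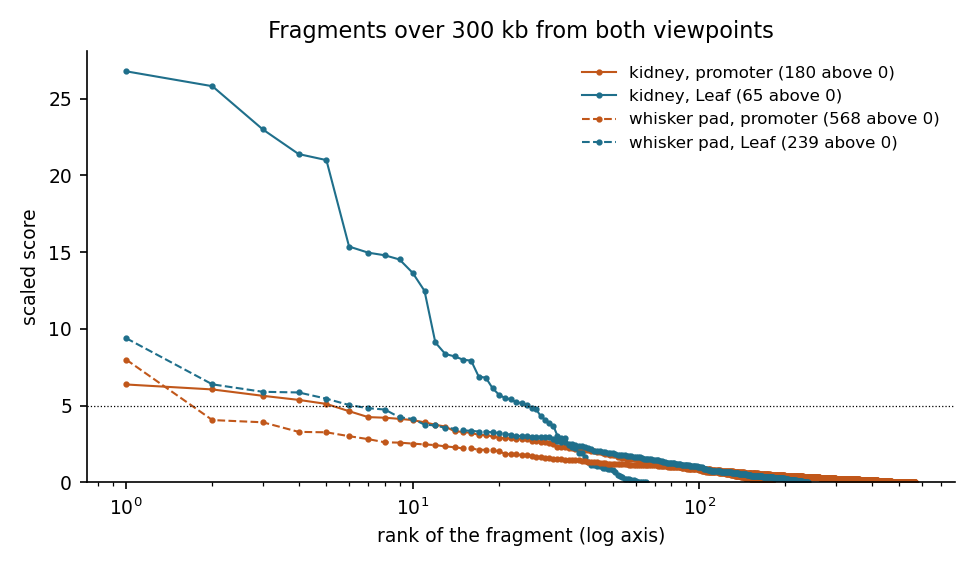
Scaled scores of the fragments above 0 that lie more than 300 kb from both viewpoints, ordered by rank (log axis), for the 2 kidney libraries (solid) and the 2 whisker pad libraries (dashed), with a dotted line at 5. The kidney Leaf library has the fewest of these fragments, 65, and the highest scores, up to 26.8.

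The contact of Leaf and the promoter was read from both ends, in the members within 10 kb of the middle of the opposite viewpoint. From the promoter, 10 of 13 members around Leaf were detected, with scores from 0 to 6.76, a median of 1.05 and a mean of 1.41. From Leaf, 6 of 11 members around the promoter were detected, with scores from 0 to 25.2, a median of 1.68 and a mean of 3.52. Detection was thus wider from the promoter and the mean higher from Leaf. Within 5 kb, the promoter had a mean of 0.469 over 3 members at Leaf, and Leaf had 1.09 over 2 members at the promoter. Those at Leaf lay 4.32 to 4.98 kb from its middle, because the fragments left empty at a viewpoint are not members. The 10 empty fragments, which lie nearer to Leaf, had a mean of 1.87 from the promoter. The 6 at the promoter had 2.49 from Leaf.

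The log2 ratio of the promoter's mean at Leaf to Leaf's mean at the promoter was -1.27. This rested largely on 1 fragment, 131116217 to 131116660 in *Lef1*. Without the highest fragment of each end, the means were 0.960 and 1.36, and the log2 ratio was -0.46. The sign was not stable either, since scaling by the median detected score gave 0.019 and the ratio of the shares of detected fragments gave 0.50. In the wider regions that the methods define, the promoter had a mean of 1.22 in the Leaf region (15 members) and Leaf had 1.41 in the *Lef1* region (148 members), a log2 ratio of -0.20.

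The fragments left empty next to a viewpoint carry a score from the opposite end, and they lie closest to the element or the gene start. From the promoter, all 10 of those at Leaf, between 131015897 and 131022898, were detected, with scores from 0.958 to 3.54 and a mean of 1.87. The highest of these, at 131018773 to 131019076, lies just centromeric to the fragment that overlaps the start of Leaf, at 131019081 to 131019765, which had 2.10. That fragment ends just inside Leaf, which runs from 131019746 to 131020624, and the next listed fragment starts at 131020832. The rest of Leaf thus has no listed fragment and no score from the promoter. Of the 6 at the promoter, between 131105767 and 131113120, 5 were detected from Leaf, with scores from 0 to 8.82 and a mean of 2.49. The 8.82 was that of the fragment from 131110073 to 131111672, which holds the start of *Lef1*. The fragment that begins at the printed promoter end, from 131107983 to 131110068, had only 0.134 from Leaf. Its counterpart, which ends at the printed Leaf end, is that at 131019081 to 131019765, with 2.10 from the promoter. Next to Leaf the detection from the promoter was thus complete and even, whereas at the promoter the score from Leaf was concentrated in few fragments.

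**Figure D5:**
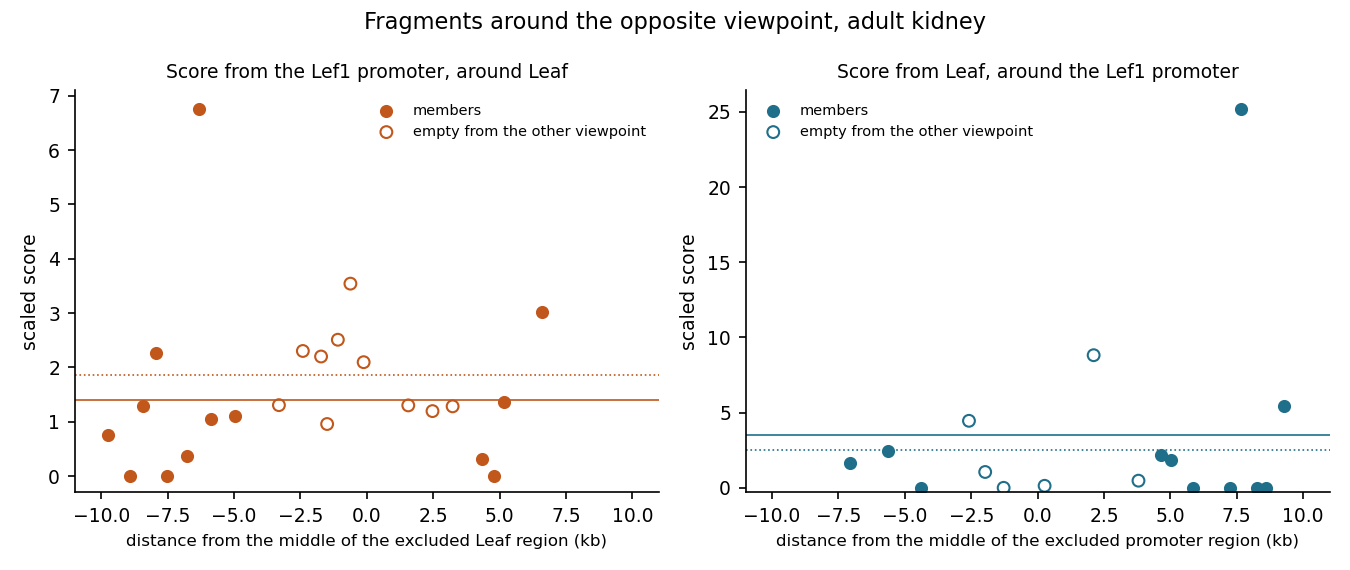
Scaled scores from the promoter around Leaf (left) and from Leaf around the promoter (right) in adult kidney, against distance in kb from the middle of the excluded region, on separate vertical scales. Filled circles are members and open circles the fragments left empty from the other viewpoint, and the lines give the means of each (1.41 and 1.87 on the left, 3.52 and 2.49 on the right).

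A stretch at the same distance on the far side of each viewpoint gives a reference for distance. The mirror of Leaf lies 89.2 kb telomeric to the promoter, within *Lef1*, from 131187986 to 131207986. There the promoter had a mean of 2.11 and detected 26 of 31 members, against 1.41 and 10 of 13 around Leaf. The mirror of the promoter lies centromeric to Leaf, in and beside *2010110G14Rik*, from 130920317 to 130940317. There Leaf had a mean of 0.599 and detected 11 of 38 members, against 3.52 and 6 of 11 around the promoter. At equal distance, the promoter had the lower mean on the side of Leaf, and Leaf had the higher mean on the side of the promoter, where its mean without the highest fragment was 1.36. Within 20 kb the gaps were smaller, with 1.81 around Leaf against 2.16 from the promoter, and 2.97 around the promoter against 1.89 from Leaf. The promoter's medians within 10 kb were alike, 1.05 around Leaf and 1.07 at the mirror, whereas those of Leaf were 1.68 and 0. With the empty fragments added, the promoter's mean around Leaf was 1.61.

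Genes of the span are described from the promoter outwards. *Lef1* itself had a mean of 6.86 from the promoter, with 126 of 143 members detected, and 1.46 from Leaf, with 42 detected. The log2 ratio was 2.16, and all 42 fragments seen from Leaf were also seen from the promoter. After each score was divided by the fall with distance fitted to its own library, the log2 ratio was 0.63. The fit used scores above 0 only, 585 from the promoter and 278 from Leaf, and its constants were 203394 and 334904. A higher constant lowers the corrected score, here that of Leaf, and the part of this in the 0.63 was not tested. The same correction turned the log2 ratio between the viewpoints from -0.36 to 0.48.

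*Hadh*, the next gene on the telomeric side, had 1.04 from the promoter and 0.237 from Leaf, with 21 and 7 of 46 members detected and all 7 common to both. *Cyp2u1* had 1.18 from the promoter with 6 of 13 members detected, and was listed at 0 from Leaf in all 13. These genes lie closer to the promoter than to Leaf.

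Farther on, *Sgms2*, which encodes a sphingomyelin synthase, had 0.212 from the promoter in 12 of 93 members and 0.517 from Leaf in 3. *Papss1*, which encodes an enzyme that makes the sulfate donor of the cell, had 0.0991 in 7 of 85 members and 0.379 in 3. The higher Leaf mean came from 3 fragments in each gene, too few to read anything from the lack of common fragments. *Sgms2* contains a stretch of 90.9 kb without listed fragments, of which 98.9% is unknown bases in the assembly, and the Leaf-specific window from 131370683 to 131471576 spans it. *Dkk2*, a secreted modulator of Wnt signalling at the telomeric edge, had 4 of 25 members detected from the promoter, a mean of 0.208, and 0 from Leaf.

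Centromeric to Leaf, *2010110G14Rik* was seen from both viewpoints, with a mean of 0.907 from the promoter in 56 of 121 members and 1.53 from Leaf in 30, of which 22 were common. The 22 members within 5 kb of the TRACER insertion, a transgene whose coordinates overlap this gene in the annotation, had 1.27 from the promoter and 0.706 from Leaf. The stretch from the ribosomal protein gene *Rpl34* to *2010110G14Rik* had 1.24 from the promoter and 1.01 from Leaf over 109 members, with 53 and 26 detected.

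Beyond *Rpl34* both viewpoints were low. *Ostc*, which encodes a subunit of the oligosaccharyltransferase complex, had 0.217 from the promoter and 0.0869 from Leaf over 15 members. *Etnppl*, a phospho-lyase gene of ethanolamine metabolism, had 0.440 and 0.000660 over 24. *Col25a1*, a transmembrane collagen gene, had 0.165 and 0.220 over 516, with 62 and 29 detected and 2 from both. *Sec24b*, a gene of the COPII vesicle coat at the centromeric edge, had 0.0812 and 0.00460 over 43.

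The scores themselves were weakly ordered alike. Over the 2082 members Spearman's rho between the viewpoints was 0.32 and Pearson's r was 0.11, and over the means of the 189 windows rho was 0.48. Among the 176 fragments detected from both, rho was 0.21, and among the 80 members between the viewpoints it was -0.01. These are descriptions across fragments of 1 chromosome that share their restriction sites, length and neighbourhood, and fragments are not independent replicates.

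Fragment length moved with detection. The median length was 451 bp for fragments detected from both viewpoints, 350.5 bp for promoter only, 341.5 bp for Leaf only and 283.5 bp for neither. Below 200 bp, 17.9% were detected from the promoter and 7.45% from Leaf, and at 800 to 1600 bp 42.2% and 25.2%. The median GC content was 45.4%, 44.0%, 42.4% and 42.4% in the same 4 sets. The part of length and base composition in the co-detection was not tested.

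The whisker pad libraries, scaled in the same way over the same members, were set beside those of kidney. There 1233 members were detected from the promoter, 744 from Leaf and 638 from both (30.6%). Of the 176 fragments co-detected in kidney, 163 were co-detected in whisker pad (92.6%), against 232 of the 1398 detected from neither in kidney (16.6%). These sets differ in distance, as 167 of the 176 lay within 300 kb of a viewpoint and 1136 of the 1398 did not. In whisker pad, 89.2% of all members within 50 kb of either viewpoint were co-detected, and 24.9% of those farther off. The part of distance in this overlap was not tested. All 21 windows shared in kidney were also shared in whisker pad, where 45 were shared, 4 promoter-specific and 2 Leaf-specific. Of the 21, 17 lay within 100 kb of a viewpoint. In whisker pad, the windows this near were 26 shared, 2 promoter-specific and 1 Leaf-specific, so that the overlap was near the local share. Of the 20 windows that were Leaf-specific in kidney, 14 were low from both viewpoints in whisker pad and 5 were shared, shares close to the 70.9% and 23.8% of all windows there. The 20 mix near and far windows. The 5 shared ones lay 46.4 to 111 kb from Leaf and included all 3 on its centromeric flank, whereas 13 of the 20 lay over 300 kb from both viewpoints. Of the 13 promoter-specific ones, 7 were shared there. The means at the opposite viewpoint were 2.69 and 2.76 in whisker pad, a log2 ratio of -0.03. Tissue, age, library and the wider detection in whisker pad cannot be told apart in this comparison.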

How the data were processed

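Per the labels, adult kidney cells were cut with NlaIII and DpnII, and reads were aligned to mm10 with Bowtie2. The authors turned them into fragment scores with HTSstation and deposited a raw signal and a signal smoothed by a running mean. The scaling before deposit and the read depth are not given in the sources used here. The smoothed signal entered no value.

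Raw scores on chromosome 3 were divided by the library's mean over the members, following the methods, which divide by the mean within 1 Mb. Ratios were log2 with a pseudocount of 0.1. The profile correction used a slope of -1 on log-log axes, fitted to scores above 0. With 1 library per viewpoint, no test was run. Intervals are 95% Wilson intervals. All per-sample columns were assigned to a sample (0 left over).

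Named regions were those of the methods, 5 kb either side of the TRACER insertion, *2010110G14Rik* and protein-coding genes with at least 5 members. Named windows were up to 5 of each class, and named fragments those with the 5 highest lesser scores and those within 10 kb of a viewpoint. Far fragments, the stretch from *Rpl34* and windows named beyond this were chosen after their values were seen. Members and lists were chosen with earlier results of these data known. Alternatives changed the scaling, pseudocount, windows, excluded fragments and distance correction. Genes came from GENCODE M21, sequences from the RefSeq GRCm38 assembly. Calculations ran in Python 3.11.15 with pandas 2.3.3, numpy 2.4.6 and scipy 1.17.1, and plots were drawn in matplotlib 3.10.9.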

Additional observations from a re-analysis of the deposited data

Results flagged for a closer look

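In 4 of the named regions the log2 ratio of promoter over Leaf score had opposite signs in kidney and whisker pad. With 1 library per tissue and viewpoint, none of these differences was tested. Within 5 kb of the TRACER insertion the ratio was 0.77 in kidney and -0.12 in whisker pad, where the means were 1.88 from the promoter and 2.04 from Leaf. *Ostc* had 0.76 in kidney and -0.63 in whisker pad, with means of at most 0.731 in all 4 libraries. *Sgms2* had -0.98 in kidney and 0.37 in whisker pad, and *Papss1* had -1.27 and 0.69. In these last genes the kidney Leaf score came from 3 fragments each.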

How the results depend on the processing

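Of 64 values recomputed under alternatives, 39 stayed in the same class, 20 moved and 5 reversed. The cause of each move was not tested, except where the alternative itself leaves out fragments. Scaling to the median of the detected fragments turned the log2 ratio of the opposite-viewpoint means from -1.27 to 0.019 and that of the fragments between the viewpoints from -0.36 to 0.93. It raised the *Lef1* ratio from 2.16 to 3.24, and left 3.70% of windows shared and 0.529% Leaf-specific. Scaling to chromosome 3 made 43.9% of windows shared and 32.3% promoter-specific. The profile correction gave -0.57 for the opposite-viewpoint ratio, 0.48 between the viewpoints, 0.63 for *Lef1* and 27.5% promoter-specific windows. Shares of detected fragments gave 0.50 for the opposite-viewpoint ratio, 0.45 between the viewpoints and 1.58 for *Lef1*. For the opposite-viewpoint ratio, the regions of the methods gave -0.20, and leaving out the highest fragment of each end gave -0.46. Without fragments within 50 kb of a viewpoint, co-detection was 4.74%, the overlap 20.7% of promoter fragments and 52.9% of Leaf fragments, and shared windows 4.07%. The rank correlation of the viewpoints was 0.21 for fragments detected from both and 0.48 for windows. Alternatives chosen after seeing the data were the equal number of promoter fragments, with 33.9% of both lists, and windows without their highest fragment, with 5.29% shared and 4.23% Leaf-specific. No paired analysis was possible because there was 1 library per viewpoint, and no replicate could be left out. The unknown depth limits what can be said of fragments at 0.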
